A study of Drosophila melanogaster with 9 samples.

Results

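Mitochondrial ribosomal proteins are encoded in the nucleus, made in the cytosol and imported into mitochondria, where they join the mitochondrial ribosomal RNAs. The small subunit decodes the messenger RNA and the large subunit joins the amino acids. The only messages that this ribosome reads are those of the mitochondrial genome, which code for core subunits of the respiratory chain and of the ATP synthase. The genes were taken by symbol from the deposited table of normalized counts. All genes beginning with *mRpS* (small subunit, 26 genes) or *mRpL* (large subunit, 47 genes) were included, which gave 73 of 15340 genes.

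RNA had been measured by RNA-seq in ventral nerve cords (VNCs) of late L3 larvae of *Drosophila*, to find which transcripts depend on Chinmo, a transcription factor of early-born neural cells, in tumors of neural stem cells (neuroblasts, NBs). All larvae carried *nab-GAL4*, a driver active in the NBs, with *UAS-dicer2* and an RNAi construct against *pros* (*UAS-prosperoRNAi*), whose loss turns NB progeny back into NBs. The PCC larvae (*nab>prosRNAi, chinmo*) also carried *UAS-chinmoFL*, the PC larvae (*nab>prosRNAi, chinmoRNAi*) also carried *UAS-chinmoRNAi*, and the P larvae (*nab>prosRNAi*) carried no *chinmo* transgene. Each condition had 3 biological replicates, A to C, each a pool of 51 to 82 VNCs in PCC, 58 to 78 in PC and 57 to 79 in P. Crosses were kept for 7 days at 18°C before the move to 29°C, and VNCs were dissected 3 days later. VNCs without the *pros* RNAi construct were not analysed here. The libraries were made from whole VNCs, and in such bulk samples fewer cells of a type and less RNA per cell cannot be told apart.

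The libraries held 30677075 to 43415151 reads on genes. Normalized counts of *chinmo* were 71836, 89792 and 81295 in PCC, 5427, 6330 and 4518 in PC, and 8190, 8533 and 8819 in P. Those of *pros* were 8607, 10751 and 9584 in PCC, 35040, 42387 and 31510 in PC, and 17406, 19998 and 15859 in P. The order of *chinmo* followed the labels, whereas *pros* differed between conditions although its RNAi construct was present in all of them. The summed normalized counts of 7 NB markers were 112555 to 132856 in PCC, 62944 to 81840 in PC and 128784 to 144229 in P. Those of 10 neuronal markers were 21081 to 40999 in PCC, 71202 to 98026 in PC and 47542 to 68853 in P. Markers of glia, muscle, fat body and hemocytes were also present. The 10 muscle markers summed to 2513 to 8198 in PCC, 7038 to 7760 in PC and 6527 to 14582 in P, with the highest sum in P replicate C. The 6 fat body markers summed to 12780 to 123377 in PCC, 180375 to 505642 in PC and 54975 to 212274 in P. The 6 hemocyte markers summed to 4507 to 12202 in PCC, 9192 to 19194 in PC and 5990 to 11413 in P, and no marker of any list was at 0 in any library.

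The PC libraries stood apart from each other in the mitochondrial ribosomal protein genes. PC replicate C was the highest of the 3 PC libraries for 66 of the 72 genes with reads, and PC replicate B was the lowest for 69. The median log2 difference of a library from the mean of the P libraries was -0.28, -0.46 and 0.31 in PC replicates A, B and C, against 0.05, 0.01 and 0.00 over all 11862 genes tested. It was 0.11, 0.22 and 0.12 in PCC replicates A, B and C, against 0.00, -0.03 and -0.03 over all genes. A gene's coefficient of variation within a condition had a median of 5.96% in PCC, 28.5% in PC and 4.42% in P. For all genes with a mean of at least 10 normalized counts it was 9.16% in PCC, 15.2% in PC and 8.23% in P. The median variation of the mitochondrial ribosomal protein genes was thus below that of all genes in PCC and P, and above it in PC. Their mean levels were 230 to 4102 normalized counts, with a median of 1140. No comparison with genes of like level was made, so the part of level in this difference was not tested.

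**Figure D1:**
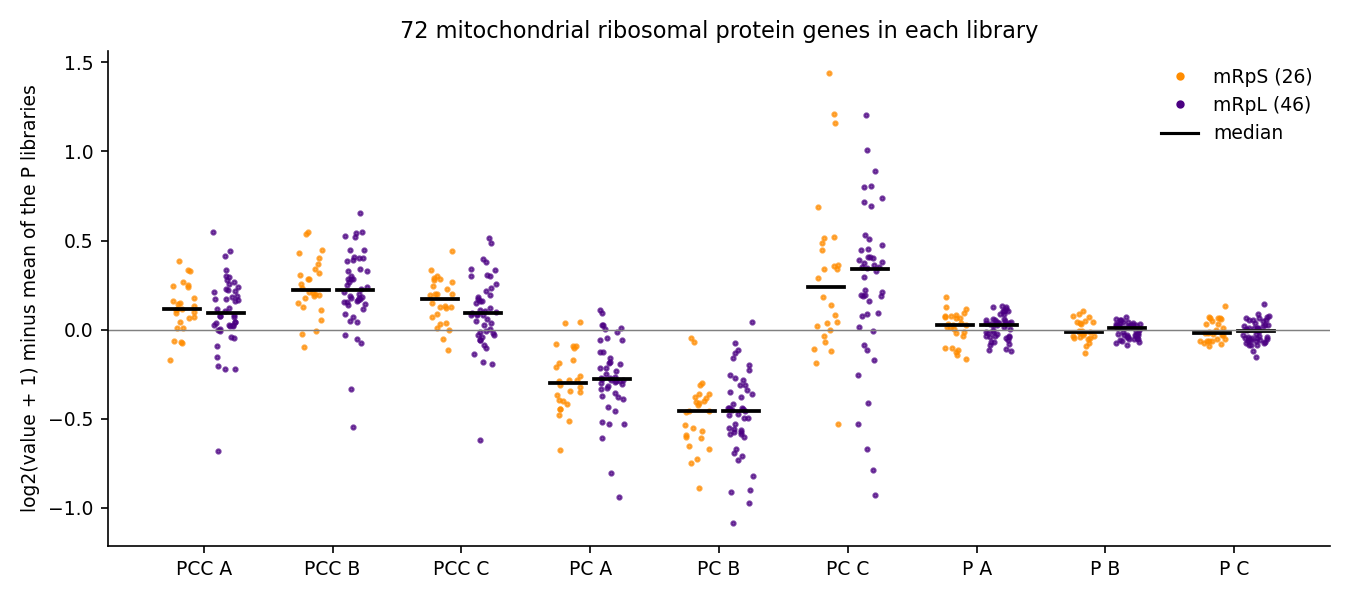
Difference of log2(value + 1) from the mean of the 3 P libraries (y axis) for the 72 genes with reads in each of the 9 libraries (x axis), as points, with small subunit genes in orange and large subunit genes in purple and with medians as black bars. Most genes lie above 0 in the 3 PCC libraries and in PC replicate C, and below 0 in PC replicates A and B.

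The spread in PC went with transcript length. Length is here that of the longest annotated transcript of a gene. Mitochondrial ribosomal protein transcripts are short, with a median of 783 nt (327 to 2078), against 1867 nt over the genes tested. In PC replicate C, the log2 difference from replicates A and B had a median of 0.83 in the 23 genes under 700 nt and of 0.36 in the 22 genes of at least 1000 nt. Across the 72 genes its Spearman correlation with length was -0.62, as a description of genes that share 1 library. The correlation was 0.53 in PC replicate A and 0.63 in PC replicate B, and it was between -0.40 and 0.35 in the PCC libraries and between -0.09 and 0.13 in the P libraries. Each library was set against the mean of the other 2 of its condition. PC replicate C is thus part of the reference for A and B, and the correlations within a condition are not independent. Over all genes tested that have a length, the same correlation was 0.28, 0.49 and -0.50 in PC replicates A, B and C. The 3 most variable genes within a condition were all high in PC replicate C. *mRpL34*, which encodes a counterpart of bacterial L34, had 664, 444 and 1929 normalized counts in PC replicates A, B and C. *mRpS21*, which encodes a counterpart of bacterial S21, had 678, 551 and 1974. *mRpS14*, which encodes a counterpart of bacterial S14, had 609, 499 and 1584. Their ranges within PC were 2.11, 1.84 and 1.66 on the log2 scale, and each was at most 0.40 within PCC and at most 0.26 within P. Because of this spread, the counts of genes that use PC are also given without PC replicate C. The part that length-related differences play in those results was not tested beyond the removal of a length trend given beside them.

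**Figure D2:**
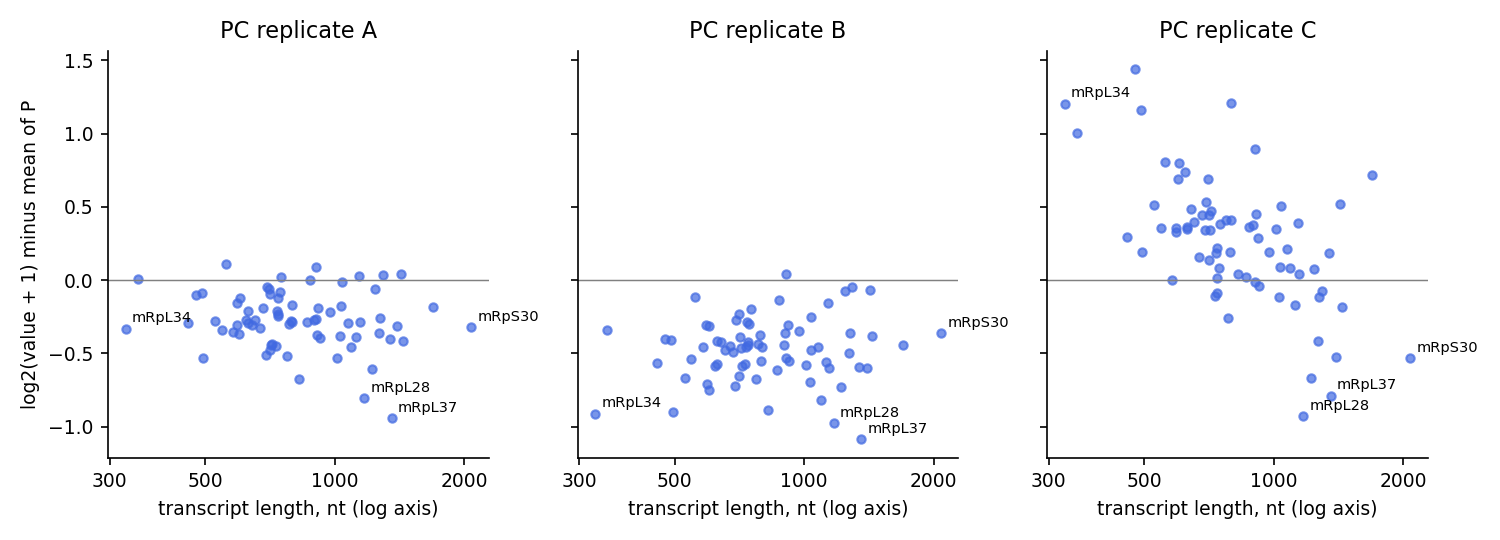
Difference of log2(value + 1) in each PC library from the mean of the P libraries (y axis) against transcript length on a log axis (x axis), with 1 point for each of the 72 genes. In PC replicate C most of the short transcripts lie above 0 and the long ones lie on both sides of it, while in replicates A and B nearly all genes lie below 0.

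Of the 73 genes, 72 were detected in every library, with at least 178 reads each, and passed the filter in every comparison. The remaining gene, *mRpL53*, which encodes a large subunit protein specific to mitochondria, had 0 reads in all 9 libraries, where a count of 0 allows up to 3 reads per library. In the current annotation (Release 6) all of its exon bases are shared with *CG33155* on the same strand, and the counting mode of the authors assigns no read that overlaps more than 1 gene, so its level is not measured by this table. *CG33155*, named here for that overlap, had 12 to 37 normalized counts in PCC, 37 to 61 in PC and 23 to 26 in P. A smaller part of the exon bases is shared on the same strand for *mRpL13* (35.2%, with *CG10602*) and for *mRpS14* (3.76%, with *CG32533*).

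Levels per kilobase of transcript had a median of 1544 normalized counts per kilobase for small subunit genes and of 1507 for large subunit genes. By the mean over all 9 libraries, the highest were *mRpL30* at 3809, *mRpL28* at 3506 and *mRpL34* at 2843. Within conditions the order differed, with *mRpL28* at 3726 in PCC and 4425 in P and *mRpL30* at 4454 in PCC and 3352 in P, and the mean of *mRpL34* includes its high value in PC replicate C. *mRpL30*, which encodes a counterpart of bacterial L30, had 2947, 3081 and 3272 normalized counts in PCC, 2257, 1930 and 3372 in PC, and 2418, 2301 and 2280 in P. By the same mean, the lowest detected were *mRpL47* at 254 (a counterpart of bacterial L29), *mRpL21* at 621 and *mRpL10* at 779 (at the base of the factor-binding stalk). *mRpL47* had 204, 199 and 206 normalized counts in PCC, 224, 217 and 391 in PC, and 211, 217 and 203 in P. *mRpL21* had 1028, 1125 and 990 in PCC, 889, 745 and 1662 in PC, and 1003, 1026 and 1006 in P. Its level per kilobase rests on its longest annotated transcript of 1696 nt, and which transcript was present was not tested. *mRpL10* had 732, 821 and 699 in PCC, 605, 567 and 724 in PC, and 707, 739 and 741 in P. PC replicate C was the highest PC library for all 3 of these genes of low level.

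Reads on the 73 genes made up 0.280%, 0.298% and 0.272% of the reads on genes in PCC replicates A, B and C. The shares were 0.228%, 0.205% and 0.310% in PC and 0.268%, 0.269% and 0.276% in P. The PCC and P shares overlapped, and PC held both the lowest and the highest share of all libraries. The sum of small subunit genes over the sum of large subunit genes was 0.599 ± 0.005 in PCC (SD, n = 3), 0.601 ± 0.009 in PC (SD, n = 3) and 0.573 ± 0.003 in P (SD, n = 3). The ratio was 0.594 to 0.604 in PCC and 0.593 to 0.610 in PC, and both lay above the 0.570 to 0.576 of P. *mRpL28* and *mRpL37* together gave 9.01% to 10.0% of the large subunit sum in PCC, 6.70% to 9.64% in PC and 13.23% to 14.02% in P. When both genes were left out, a choice made after their values were seen, the ratio was 0.659 to 0.667 in PCC, 0.644 to 0.675 in PC and 0.662 to 0.667 in P, and the conditions overlapped. PC replicate C had the lowest of these ratios and PC replicate B the highest. With *mRpS30* and *mRpS18A* counted in the large subunit, after their mammalian counterparts, the ratio was 0.469 to 0.480 in PCC, 0.487 to 0.527 in PC and 0.462 to 0.474 in P, and PCC and P overlapped, another choice made after seeing the data.

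**Figure D3:**
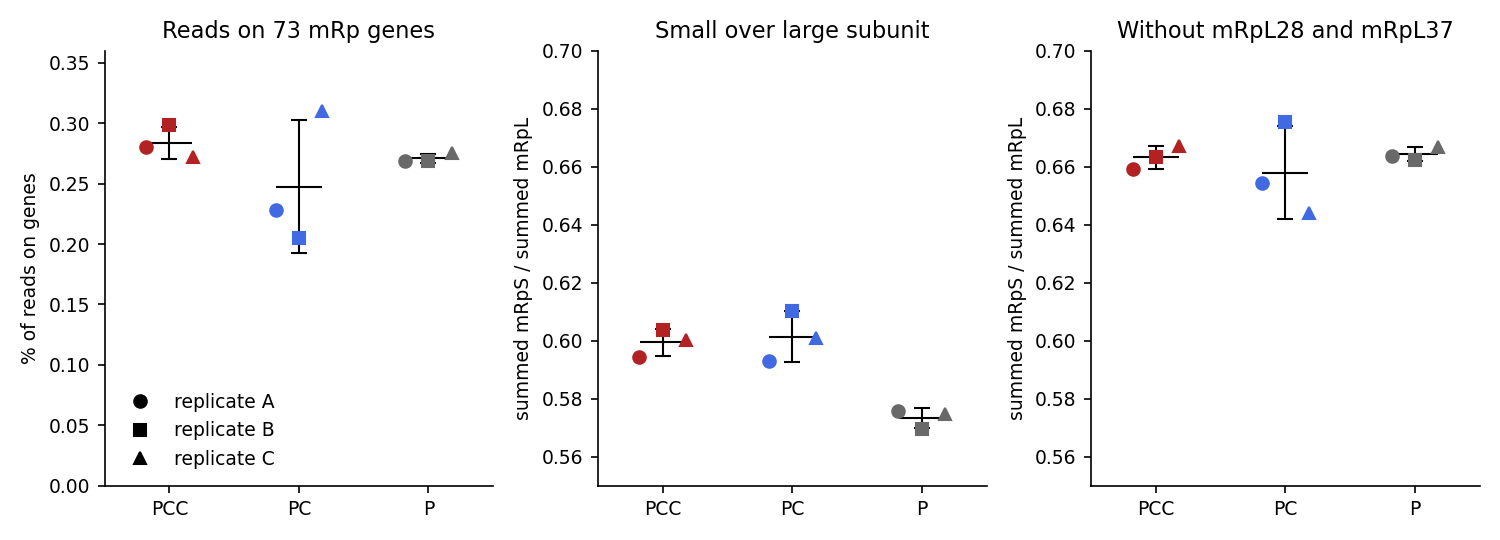
Share of reads on the 73 genes (left, % of reads on genes), sum of small over sum of large subunit genes (middle) and the same ratio without *mRpL28* and *mRpL37* (right), per library (points; bars are mean ± SD, n = 3). The middle and right axes do not start at 0. The P libraries lie at 0.570 to 0.576 in the middle panel, below all others, and overlap with them in the right panel.

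Knockdown of *chinmo* beside that of *pros*, PC against P, was tested on log2(value + 1) with limma in the 6 libraries, at a Benjamini-Hochberg adjusted p under 0.05 over all genes whose values sum to at least 15. The counts and the log2 fold changes below use this test and this scale, which slightly understates the change of low genes. In PC, 9 of 72 genes were lower than in P, where 14.1% of all genes tested were called lower. No gene was higher (0 at an unadjusted p under 0.05, and 0 with edgeR and with DESeq2), where 17.9% of all genes were called higher. The 9 genes were 7 of the large and 2 of the small subunit. The median log2 fold change was -0.17 over the 72 genes (-0.18 for the small and -0.16 for the large subunit), against 0.05 over all genes, and 15 genes had a positive value. All 7 NB markers were lower in PC and 6 of 10 neuronal markers were higher. Among the other markers, 3 of 6 for hemocytes, 3 of 7 for glia and 1 of 6 for fat body (*Fbp1*) were higher in PC, and 2 for glia and 1 of 10 for muscle were lower. The part of these markers in the result was not tested.

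The genes with the largest fall in PC encode large subunit proteins. *mRpL37*, a mitochondria-specific protein, had 1851, 1674 and 2059 normalized counts in PC, against 3623, 3578 and 3465 in P. *mRpL28*, a counterpart of bacterial L28, had 2961, 2632 and 2719 in PC, against 4898, 5362 and 5271 in P. *mRpL1*, the protein of the flexible L1 stalk, had 1238, 1138 and 1188 in PC, against 1840, 1873 and 1953 in P. In these 3 genes every PC library lay below every P library, PC replicate C included. Their log2 fold changes were -0.94 (SE 0.10, adjusted p = 0.000952, limma, Benjamini-Hochberg) for *mRpL37*, -0.90 (SE 0.09, adjusted p = 0.000753) for *mRpL28* and -0.67 (SE 0.09, adjusted p = 0.00209) for *mRpL1*.

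Smaller falls were found for *mRpL38*, *mRpL45* and *mRpS30*. *mRpL38*, a mitochondria-specific protein, had 1792, 1469 and 1545 normalized counts in PC, against 2433, 2140 and 2121 in P (log2 fold change -0.48, SE 0.11, adjusted p = 0.0165, limma, Benjamini-Hochberg). *mRpL45*, which in mammals lies at the exit of the peptide tunnel next to the inner membrane, had 1407, 1281 and 1353 in PC, against 1918, 1776 and 1723 in P (log2 fold change -0.42, SE 0.10, adjusted p = 0.0143, limma, Benjamini-Hochberg). *mRpS30*, named for the small subunit although its mammalian counterpart sits in the large one, had 2860, 2785 and 2473 in PC, against 3654, 3681 and 3399 in P (log2 fold change -0.40, SE 0.10, adjusted p = 0.0171, limma, Benjamini-Hochberg). The PC and P libraries did not overlap for these genes either. The other genes that fell were *mRpL44* (-0.37), *mRpL43* (-0.33) and *mRpS29* (-0.33), whose mammalian counterpart is DAP3, with adjusted p = 0.0487, 0.04997 and 0.0496 (limma, Benjamini-Hochberg).

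The number of genes called in PC depended on PC replicate C. Without it, 48 of 72 genes were lower than in P, 18 of the small and 30 of the large subunit, with a median log2 fold change of -0.37 against 0.06 over all genes, where 20.3% of all genes were called lower. Without PC replicate B 5 genes were lower and the median was 0.00, without PC replicate A 6 genes, and without P replicate A or P replicate B 3 genes. In the same order, 10.85%, 11.03%, 6.47% and 6.15% of all genes were called lower in those fits. In PC replicate A, 61 of 72 genes lay below all 3 P libraries, and in PC replicate B 69 did. In PC replicate C, 14 lay below and 52 lay above all P libraries. Over all genes, 35.5% to 37.8% lay below and 39.7% to 42.7% above all P libraries in each PC library. With the trend on transcript length removed from each library, 39 genes were lower, with a median of -0.45 against -0.14 over all genes, where 28.8% of all genes were called lower. The genes called with all libraries were mostly long ones, with 8 of the 22 genes of at least 1000 nt against 1 of the 50 shorter genes. The standard errors of the shorter genes were also larger, with a median of 0.21 against 0.13.

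**Figure D4:**
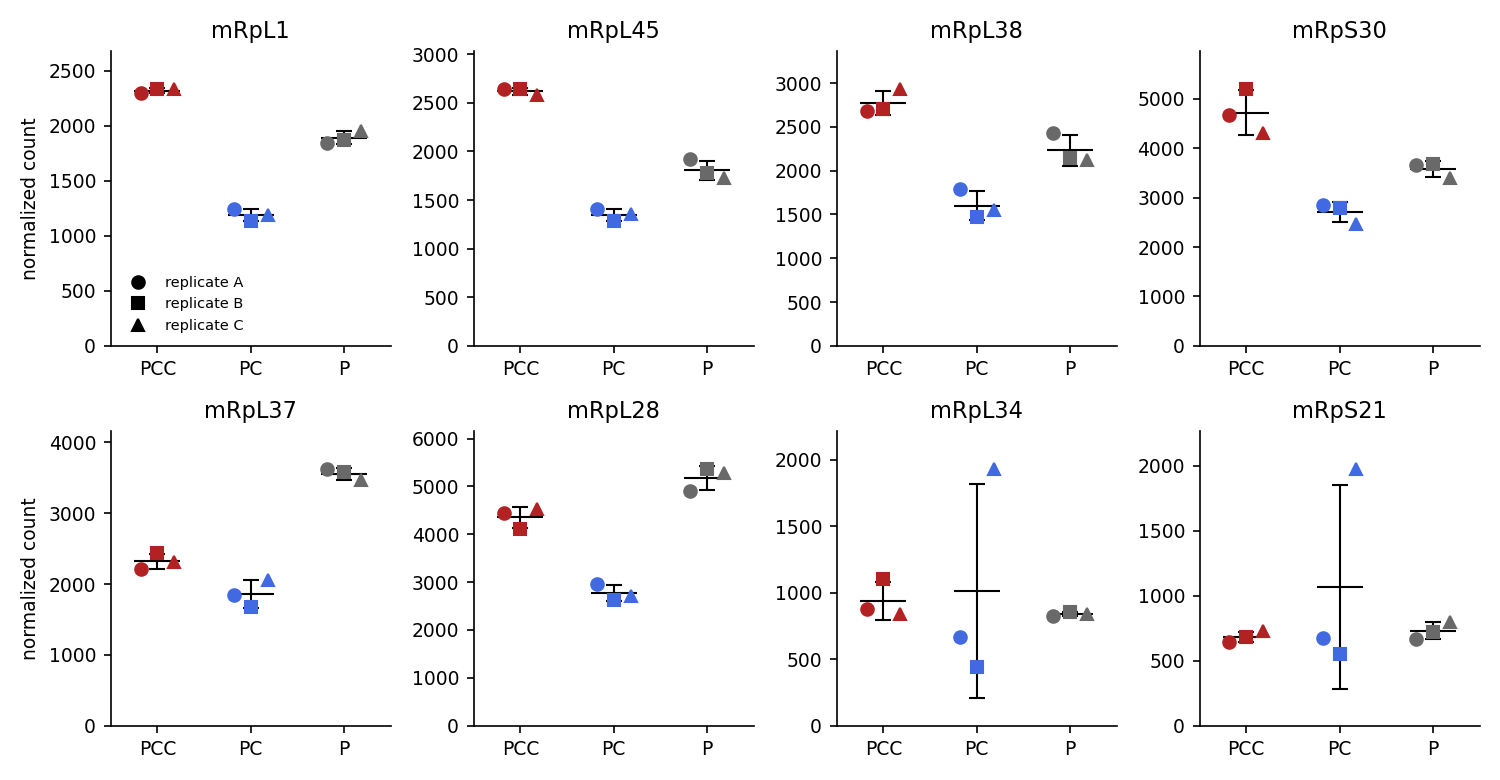
Normalized counts (y axis, from 0) of 8 genes in the 3 PCC, 3 PC and 3 P libraries (points, by replicate; bars are mean ± SD, n = 3). *mRpL1*, *mRpL45*, *mRpL38* and *mRpS30* are highest in PCC and lowest in PC, *mRpL37* and *mRpL28* are highest in P, and *mRpL34* and *mRpS21* differ most between PC replicate C and all other libraries.

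Overexpression of *chinmo* with knockdown of *pros*, PCC against P, gave changes of small size in the opposite direction for most genes. In PCC, 14 of 72 genes were higher than in P, 10 of the large and 4 of the small subunit, where 9.74% of all genes tested were called higher. The genes lower in PCC were *mRpL37* and *mRpL28* (2 of 72), where 8.26% of all genes were called lower. The median log2 fold change was 0.16 (0.19 for the small and 0.14 for the large subunit), against -0.02 over all genes, and 64 of 72 genes had a positive value. Among the markers, 1 of 7 for NBs (*mira*), 1 of 10 for neurons (*elav*) and 1 of 10 for muscle (*bt*) were lower and 1 of 7 for glia (*Eaat1*) was higher in PCC, and their part in the result was not tested.

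The largest increase in PCC was that of *mRpL45*, with 2640, 2641 and 2579 normalized counts in PCC, against 1918, 1776 and 1723 in P (log2 fold change 0.54, SE 0.06, adjusted p = 0.00299, limma, Benjamini-Hochberg). *mRpL35*, a counterpart of bacterial L35, had 1211, 1402 and 1099 in PCC, against 974, 852 and 851 in P (log2 fold change 0.47, adjusted p = 0.0322, limma, Benjamini-Hochberg). *mRpL9*, a counterpart of bacterial L9, had 2037, 2197 and 1992 in PCC, against 1560, 1588 and 1442 in P (log2 fold change 0.44, adjusted p = 0.00853, limma, Benjamini-Hochberg). The PCC and P libraries did not overlap for any of these genes.

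*mRpL30*, *mRpS30* and *mRpS18B* rose by 0.41, 0.40 and 0.39 on the log2 scale, with SE of 0.06, 0.08 and 0.07. *mRpS30* had 4670, 5198 and 4307 normalized counts in PCC, against 3654, 3681 and 3399 in P. *mRpS18B*, one of 3 copies of a gene whose bacterial counterpart encodes S18, had 1420, 1497 and 1536 in PCC, against 1189, 1098 and 1110 in P. For these genes too, every PCC library lay above every P library. The remaining 8 genes that rose, among them *mRpL1* (0.30) and *mRpL38* (0.32), had log2 fold changes of 0.22 to 0.37.

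The number of these calls in PCC moved with the processing. Without any 1 of the 6 libraries, 3 to 9 genes were higher in PCC than in P, with the fewest without P replicate B (3), P replicate C (5) and PCC replicate A (5), then PCC replicate B (6), P replicate A (9) and PCC replicate C (9). The median stayed between 0.12 and 0.19 in those fits. The share of all genes called higher was also lower in them than the 9.74% with all libraries. It ranged from 3.81% without P replicate B to 8.10% without PCC replicate C. With the length trend removed, *mRpL45* rose and *mRpL37* fell and the median was 0.17, against 0.05 over all genes. In that fit 5.24% of all genes were called higher and 3.04% lower. With a common total per library, 8 genes were higher and the median was 0.08, against -0.10 over all genes, where 7.39% of all genes were called higher.

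Between the extremes of Chinmo, PCC against PC, 15 of 72 genes were higher in PCC, 8 of the large and 7 of the small subunit, where 19.9% of all genes tested were called higher. No gene was lower (0 at an unadjusted p under 0.05, and 0 with edgeR and with DESeq2), where 22.7% of all genes were called lower. The share of these genes called higher was thus near that of all genes. The median log2 fold change was 0.31 (0.32 for the small and 0.30 for the large subunit), against -0.03 over all genes, and 65 of 72 genes had a positive value. Of the markers, 6 of 7 for NBs were higher in PCC and 9 of 10 for neurons were lower. Of the others, 3 of 6 for hemocytes, 3 of 6 for fat body, 3 of 10 for muscle and 4 of 7 for glia were lower and 2 for glia were higher, and the part of these markers in the result was not tested.

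*mRpL1* had 2294, 2329 and 2330 normalized counts in PCC, against 1238, 1138 and 1188 in PC (log2 fold change 0.96, SE 0.09, adjusted p = 0.000342, limma, Benjamini-Hochberg). *mRpL45* differed by the same amount (log2 fold change 0.96, SE 0.09, adjusted p = 0.000342, limma, Benjamini-Hochberg). *mRpS30* and *mRpL38* were each higher by 0.80 on the log2 scale (SE 0.11 each). *mRpL17*, a counterpart of bacterial L17, had 1779, 2114 and 1738 in PCC, against 1057, 822 and 1542 in PC (log2 fold change 0.76, SE 0.22, adjusted p = 0.0295, limma, Benjamini-Hochberg). *mRpS26*, a mitochondria-specific small subunit protein, had 1976, 2089 and 2159 in PCC, against 1140, 985 and 1875 in PC (log2 fold change 0.69, SE 0.23, adjusted p = 0.0438, limma, Benjamini-Hochberg). The libraries did not overlap for these 6 genes, but in *mRpL17* and *mRpS26* PC replicate C lay close to PCC.

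Without PC replicate C, 61 of 72 genes were higher in PCC than in PC, 22 of the small and 39 of the large subunit, and the median log2 fold change was 0.55, against -0.03 over all genes, where 25.01% of all genes were called higher. Without PC replicate A, PC replicate B or PCC replicate B, 9 genes were higher in each case. In the same order, 17.28%, 17.03% and 14.66% of all genes were called higher. With the length trend removed 44 genes were higher, with a median of 0.59 against 0.22 over all genes, where 30.6% of all genes were called higher.

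**Figure D5:**
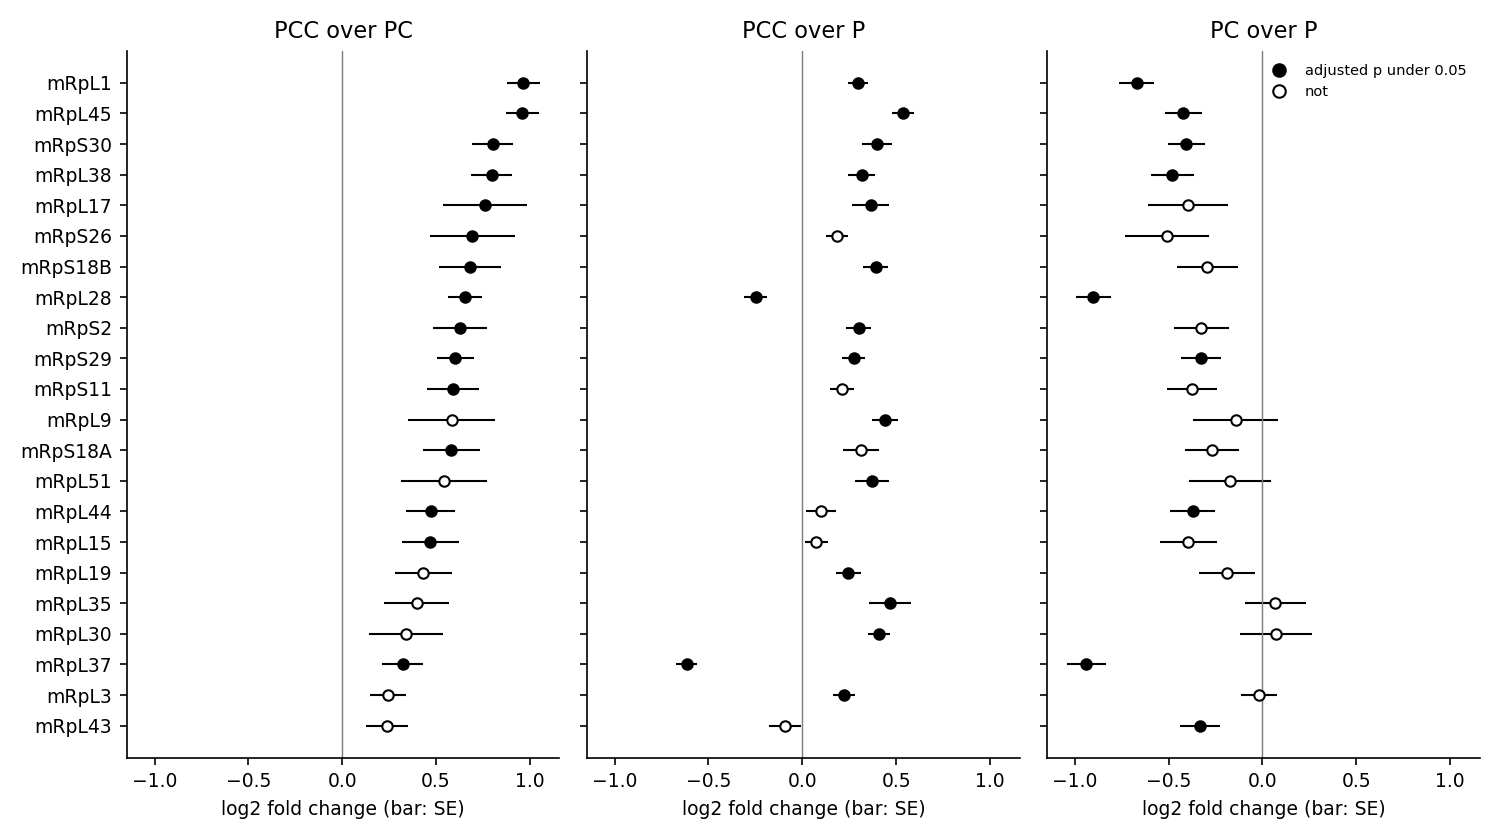
Log2 fold changes (x axis; bars are SE) of the 22 genes called in at least 1 comparison, for PCC over PC, PCC over P and PC over P. Filled points passed an adjusted p under 0.05 (limma, Benjamini-Hochberg). *mRpL37* and *mRpL28* are the genes called below 0 in both comparisons with P.

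Of the 72 genes, 49 had their means in the order of *chinmo*, highest in PCC and lowest in PC, and 50 were called in no comparison. *mRpL1*, *mRpL38*, *mRpL45*, *mRpS29* and *mRpS30* (5 genes) were both higher in PCC than in P and lower in PC than in P. The comparisons share the P libraries, so these calls are not independent of each other. Another 5 genes had their highest mean in P (*mRpL28*, *mRpL37*, *mRpL43*, *mRpS28* and *mRpS31*), and 15 had their lowest mean in P. The remaining 3 (*mRpL39*, *mRpL47* and *mRpS21*) had the reverse order, highest in PC and lowest in PCC. The means in PC include PC replicate C. The same counts of orders and of shared calls were not made over all genes. Whether they are particular to these genes was thus not tested.

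*mRpL37* and *mRpL28* were the genes called lower than P in both other conditions. *mRpL37* had 2216, 2432 and 2315 normalized counts in PCC and 1851, 1674 and 2059 in PC, against 3623, 3578 and 3465 in P. It was lower than in P with more *chinmo* (log2 fold change -0.62, SE 0.06, adjusted p = 0.00154, limma, Benjamini-Hochberg) as well as with less. *mRpL28* had 4437, 4113 and 4529 in PCC and 2961, 2632 and 2719 in PC, against 4898, 5362 and 5271 in P. Its fall in PCC was smaller (log2 fold change -0.25, SE 0.06, adjusted p = 0.0364, limma, Benjamini-Hochberg), and this call did not pass in 10 of 20 alternatives, edgeR and removal of the length trend among them. In both genes PCC still lay above PC, by 0.32 and 0.65 on the log2 scale.

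The difference between the steps, PCC minus P less P minus PC on the log2 scale, was tested in a fit of all 9 libraries. It was -1.55 (SE 0.15, adjusted p = 0.000848, limma, Benjamini-Hochberg) for *mRpL37* and -1.15 (SE 0.14, adjusted p = 0.00189) for *mRpL28*. No other gene of the 72 passed in this direction, in which 3.28% of all genes were called. In the opposite direction, in which 3.64% of all genes were called, none passed (0 at an unadjusted p under 0.05 and 0 with edgeR and with DESeq2). Both genes passed under each of the alternatives tried, including each library left out in turn. Without PC replicate C the number of genes that passed was 6, with *mRpL1*, *mRpL49*, *mRpS26* and *mRpS28* added. *mRpL37* shares no exon base with another gene on its strand in the current annotation and *mRpL28* shares 17 of 1170 with *Gmd* on the opposite strand, which strand-specific counting keeps apart.

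The copies related to bacterial S18 were called differently. *mRpS18A*, whose mammalian counterpart lies in the large subunit, had 1087, 1337 and 1236 normalized counts in PCC and 767, 713 and 978 in PC, against 990, 1030 and 919 in P. *mRpS18C* had 755, 793 and 779 in PCC and 604, 461 and 1048 in PC, against 684, 781 and 739 in P. *mRpS18B* passed in PCC over P and in PCC over PC. *mRpS18A* passed in PCC over PC (log2 fold change 0.58, SE 0.15, adjusted p = 0.0195, limma, Benjamini-Hochberg) and not in PCC over P (0.31, adjusted p = 0.0662), and *mRpS18C* passed in neither (0.08 and 0.23). *mRpS18C* is the shortest of them at 528 nt and had the widest range of them within PC, and whether the copies differ from each other was not tested.

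The mitochondrial ribosomal proteins known under other symbols, *bonsai* (S15) and *tko* (S12), were not selected by symbol. *bonsai* had 2851, 3289 and 2760 normalized counts in PCC and 1713, 1493 and 1682 in PC, against 2166, 2048 and 2174 in P. It was higher in PCC than in P (log2 fold change 0.47, SE 0.08, adjusted p = 0.0103, limma, Benjamini-Hochberg) and lower in PC than in P (-0.39, SE 0.10, adjusted p = 0.0204), with no overlap of the libraries. With the length trend removed, the call in PCC over P did not pass. *tko*, whose mutants are sensitive to mechanical shock, had 769, 899 and 790 in PCC and 647, 583 and 1520 in PC, against 806, 826 and 894 in P. It passed in no comparison with all libraries, and PC replicate C was again the highest library. Without that library *tko* and *bonsai* were both lower in PC than in P and higher in PCC than in PC.

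Genes for proteins that work with this ribosome were taken as lists. Of 37 genes for mitochondrial DNA maintenance, transcription, tRNA charging and translation factors, 35 were tested. In PC, 11 were lower and 2 were higher than in P, where 14.1% of all genes were called lower and 17.9% higher. The largest falls were in *bsf* (-0.77 on the log2 scale), an RNA-binding protein, and *mtDNA-helicase* (-0.76). Those higher in PC were *mRRF1*, a ribosome recycling factor (0.68), and *PheRS-m*, a tRNA synthetase (0.41). In PCC 10 were higher than in P, led by *mRRF1* (0.98), *TyrRS-m* (0.50) and *IleRS-m* (0.47), where 9.74% of all genes were called higher. In PCC 18 were higher than in PC, led by *bsf* (1.11), *mtDNA-helicase* (1.04) and the elongation factor *mEFG1* (0.89), where 19.9% of all genes were called higher. The gene lower in PCC than in PC was *PheRS-m* (-0.40), and none was lower in PCC than in P (limma; 0 at an unadjusted p under 0.05, and 0 with edgeR and with DESeq2). Over all genes, 22.7% were called lower in PCC than in PC and 8.26% lower in PCC than in P. The median log2 fold changes of the list were -0.30 for PC over P, 0.20 for PCC over P and 0.43 for PCC over PC. Without PC replicate C, 16 were lower in PC than in P and 22 were higher in PCC than in PC. In those fits 20.3% of all genes were called lower in PC than in P and 25.01% higher in PCC than in PC. With the length trend removed, 29 were lower in PC than in P, where 28.8% of all genes were called lower. In PCC 3 were then higher than in P, where 5.24% of all genes were called higher.

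Among 68 nuclear genes for subunits of the respiratory chain and ATP synthase, 21 were higher and 1 was lower in PCC than in P. Their median log2 fold change was 0.17. Over all genes, 9.74% were called higher and 8.26% lower. With the length trend removed, 1 of the 68 was higher, where 5.24% of all genes were called higher. Those with the largest increases were the ATP synthase subunits *blw* (0.56) and *ATPsynE* (0.51) and the complex I subunit *ND-24* (0.49), and the lower gene was *UQCR-11* (-0.45) of complex III. In PC, *SdhB* (-0.41) and *ND-23* (-0.33) were lower and *ND-B8* (1.68) was higher than in P, with a median of 0.13. The fold change of *ND-B8* rests on few reads, with a mean of 12.6 normalized counts in PC and 3.12 in P. Over all genes, 14.1% were called lower and 17.9% higher in PC. Without PC replicate C 7 of the list were lower, with a median of -0.09, where 20.3% of all genes were called lower. For PCC over PC 11 were higher, led by *SdhB* (0.67), with a median of 0.09, where 19.9% of all genes were called higher. Without PC replicate C 38 were higher, where 25.01% of all genes were called higher. Of 18 genes for protein import and folding in mitochondria, 14 were tested against P. In PCC 6 were higher than in P, led by the import pore *Tom40* (0.67) and the receptor *Tom70* (0.48), where 9.74% of all genes were called higher. In PC 1 was lower (*Tom70*, -0.33), where 14.1% of all genes were called lower. With the length trend removed 2 were higher in PCC than in P, where 5.24% of all genes were called higher. Without PC replicate C 3 were lower in PC than in P, where 20.3% of all genes were called lower. Between PCC and PC 16 were tested, and 3 were higher in PCC (*Tom40*, *Tom70* and *Hsp60A*), or 10 without PC replicate C. Over all genes, 19.9% were called higher with all libraries and 25.01% without PC replicate C.

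The 93 genes for cytosolic ribosomal proteins, which make the mitochondrial ones, have transcripts of like length (median 877 nt) and took 15.8% to 17.9% of the reads in PCC, 12.7% to 22.6% in PC and 17.12% to 17.19% in P. PC replicate C was the highest library here as well. Their median log2 fold change was -0.15 for PC over P, with 3 of 91 lower and 2 higher. Over all genes, 14.1% were called lower and 17.9% higher. The median was 0.07 for PCC over P, with 1 of 89 higher (*RpS19b*) and 2 lower (*RpS5b* and *RpS15Ab*). In that comparison 9.74% of all genes were called higher and 8.26% lower. For PCC over PC the median was 0.18, with 5 of 90 higher and 1 lower (*RpS5b*). Over all genes, 19.9% were called higher and 22.7% lower. Without PC replicate C 63 were higher, with a median of 0.45, where 25.01% of all genes were called higher. Without PC replicate C, 63 of 89 cytosolic genes were lower in PC than in P, where 20.3% of all genes were called lower. The median of the 89 was -0.38, beside the -0.37 of the mitochondrial ribosomal protein genes. With the length trend removed, 31 of 91 were lower and 2 higher in PC than in P, with a median of -0.40. In that fit 28.8% of all genes were called lower and 15.5% higher. Whether the mitochondrial and the cytosolic lists differ from each other was not tested.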

How the data were processed

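RNA-seq was made from VNCs of 3 genotypes with 3 biological replicates each. According to the study's methods and the submitters' processing notes, poly-A RNA was made into strand-specific libraries and read from 1 end. The authors demultiplexed the reads with CASAVA 1.8.2, aligned them to dm3 with TopHat 2.0.9 and Bowtie 2.1.0, counted with HTSeq-count 0.5.3p9 in union mode and normalized with DESeq. The deposited values are signal values in the form of read counts divided by a size factor. All of them (100%) were whole multiples of the value of 1 read within a relative tolerance of 1e-06, so the reads were recovered.

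The main test, in R 4.3.3 and limma 3.58.1, was run on the log2 of the value plus a pseudocount of 1, with a mean-variance trend. Each comparison used its 6 libraries and genes with a summed value of at least 15, and p-values were adjusted by Benjamini-Hochberg over all genes at 0.05. The script was tested on simulated data. On the recovered reads edgeR 4.0.16 called 1980 genes of the table higher and 1735 lower for PC over P, 1336 and 744 for PCC over P, and 2857 and 2276 for PCC over PC. DESeq2 1.42.0 was also run. The alternatives were no filter or a mean of at least 10, a pseudocount of 0.5 or 10, other scalings, removal of a loess trend on transcript length, no variance trend, all 9 libraries fitted together, a replicate block and the omission of each library. Transcript lengths, overlaps and current symbols came from the Release 6 annotation (14953 genes of the table and all 73 genes of the set matched), whose coordinates were not used.

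The genes and the lists beside them were chosen with earlier results of these data known, and *hoip* was removed from the list of mitochondrial gene expression because it does not belong there. Values in every library are given for the targeted genes, for up to 6 genes called per direction and comparison by size, for the 3 highest and 3 lowest detected genes per kilobase, the 3 most variable within a condition, those with unequal steps and the S18 copies. Other lists are given by counts and up to 3 examples, and a count of few genes names them. The labels give the stage as wandering as well as late L3. The lane of each library is not stated in the sources used here, and no batch term was fitted. Counting error is small at these depths.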

Additional observations from a re-analysis of the deposited data

How the results depend on the processing

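No gene of the set called in a comparison changed direction under an alternative, and 12 of the 40 calls passed under every one of them. For PC lower than P (9 genes), counts were 3 to 48 with 1 library left out, 39 with the transcript length trend removed and 36 with the replicate block and that trend removed together. For PCC higher than P (14 genes), counts were 3 to 9 with 1 library left out. They were 22 with median of ratios, with quantile normalization and with edgeR, 27 with DESeq2, 8 with the same total, 5 without the variance trend, 3 with all 9 libraries, 1 with the length trend removed, and 0 with the replicate block, alone or with the length trend removed (limma; 23 and 3 at an unadjusted p under 0.05). For PCC lower than P (2 genes), counts were 1 to 2 with 1 library left out, 1 with the length trend removed, without the variance trend, with all 9 libraries, with the replicate block and with edgeR, and 0 with the block and length trend together (1 at an unadjusted p under 0.05). For PCC higher than PC (15 genes), counts were 9 to 61 with 1 library left out, 25 with quantile normalization and with all 9 libraries, 44 with the length trend removed and 58 with the replicate block as well. The replicate block alone gave 6 lower genes for PC over P and 12 higher for PCC over PC. Unequal steps were found for 2 to 6 genes with 1 library left out, 2 with the replicate block and 3 with DESeq2. The alternatives for the steps, and the ratio with *mRpS30* and *mRpS18A* counted in the large subunit (0.474 in PCC, 0.503 in PC and 0.468 in P), were added after seeing the data. The percentage of all genes called moved between the alternatives as well. It was 6.15% to 28.8% for PC lower than P, 1.13% to 15.3% for PCC higher than P and 13.9% to 32.7% for PCC higher than PC. The cause of these differences was not tested.

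In no comparison did all libraries with the same letter deviate together (correlations of 0.327, -0.0355 and 0.122 for PC and P, -0.467, -0.0257 and -0.41 for PCC and P, -0.0819, -0.152 and 0.0276 for PCC and PC, letters A to C), so the letters were not taken as pairs. Medians of the 72 genes were -0.45 to 0.00 for PC over P, 0.08 to 0.21 for PCC over P and 0.18 to 0.59 for PCC over PC. Over all genes, the share of calls that were higher was 55.9% for PC over P, 44.2% with quantile normalization and 35.0% with the length trend removed. It was 54.1% for PCC over P and 33.5% with the same total. It was 46.7% for PCC over PC, 35.2% with the same total, 57.4% with quantile normalization and 63.1% with the length trend removed. With quantile normalization the median of all genes was -0.08 for PC over P and 0.11 for PCC over PC, and with the same total it was -0.15 for PCC over PC.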
